A study of Homo sapiens with 24 samples.

Results

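The 36 antioxidant and detoxification genes described here are a list of gene symbols. It holds the transcription factor NRF2 (gene NFE2L2) and its inhibitor KEAP1, genes of glutathione and thioredoxin chemistry, of haem and iron, of quinone, carbonyl, epoxide and glucuronide metabolism, 3 efflux pumps, OSGIN1, and the aryl hydrocarbon receptor AHR with 3 of its target genes. They were chosen by name and function from 34834 genes with a transcript in the tables, with earlier results of these data known. Of the 36, 35 passed the filter on low counts. SK-MES1, an established human cell line from a squamous cell carcinoma of the lung, was deprived of serum for 3 h and then stimulated with TGFβ1 at 2 ng/ml or left untreated. Both arms were sampled after 0, 8, 24 and 48 h. With 3 replicates each, this gives 24 libraries in 8 groups. All groups share the serum withdrawal, and by their labels the arms differ in TGFβ1. The cells are 1 line, so the replicates do not cover differences between tumours.

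NRF2 is a transcription factor that KEAP1 marks for destruction, and oxidants or electrophiles that modify KEAP1 let it accumulate and bind antioxidant response elements near genes for glutathione synthesis, thioredoxin recycling, quinone reduction and drug export. AHR is a receptor for aromatic pollutants and endogenous ligands that, with its partner ARNT, binds xenobiotic response elements and switches on cytochrome P450 genes of the CYP1 family. Squamous cell carcinomas of the lung are known for frequent activation of the NRF2 pathway. TGFβ is a cytokine that acts through SMAD transcription factors.

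The libraries held 46613589 to 77964234 estimated counts. Levels are given as TPM, the share of all transcripts after correction for length, summed over the transcripts of a gene in GENCODE release 44. Differences are on the log2 scale from limma voom with TMM scaling, ± standard error, and a gene was called where its p-value, adjusted by the Benjamini-Hochberg method over all 17415 tested genes, was below 0.01. In libraries of bulk RNA, fewer cells that express a gene and less RNA per cell cannot be told apart. The TGFβ response genes SMAD7, PMEPA1 and TGFBI were higher with TGFβ at 8, 24 and 48 h, by 1.82 to 4.53 on the log2 scale. Of 8 squamous markers, KRT5, KRT6A, KRT14 and DSG3 were below 1 TPM in every library, whereas TP63 lay between 7.69 and 37.5 TPM and PKP1 between 15.6 and 58.5 TPM. At 48 h KRT17 had a mean of 70.5 TPM with TGFβ against 5.41 TPM without, and SOX2 one of 0.432 against 5.23 TPM. The summed squamous list was then at 130.5 to 134 TPM with TGFβ and at 62.8 to 64.6 TPM without, and its part in the differences between the arms was not tested. Of 5 leukocyte markers, CD3E was at 0 and LYZ was below 1 TPM in every library. The summed list, mostly CD68, lay between 30.3 and 42.0 TPM at 0 h and between 9.22 and 12.9 TPM at 48 h, and its part in the changes over time was not tested. Replicate 2 stood apart from replicates 1 and 3 at 0 and 24 h in both arms, with a chi-square per gene of 14.7 to 60.5 against 4.13 to 16.8 between the other replicates. The names of the deposited tables carry 4 codes. Each arm has 1 code shared by its libraries of 0 and 8 h, and another shared by those of 24 and 48 h. The codes of the arms thus differ at every time, and in the differences between the arms code and treatment cannot be told apart. The changes from 0 to 8 h and from 24 to 48 h lie within 1 code in each arm, and that from 0 to 48 h does not.

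In promoter sequences from RefSeq (GRCh38.p14, 250 bases before to 50 bases after the start), 36 entries of 26 of the 36 genes were searched. The remaining genes, GSR among them, were not covered, and their absence here does not show that they lack an entry. The core of the antioxidant response element, TGACNNNGC or GCNNNGTCA on the other strand, was found in 10 of these 36 promoters (27.8%), and in 4687 of all 35116 promoters (13.3%). The core of the xenobiotic response element, GCGTG or CACGC on the other strand, was found in 19 of the 36 (52.8%) and in 12832 of all promoters (36.5%). The promoters of 2 genes with an antioxidant element and 2 of the AHR group are shown, read 5′ to 3′ along each gene, with all matches of both motifs in capitals, none of which overlap. They are GCLM at chr1:93909381-93909680 (minus strand), TXNRD1 at chr12:104286782-104287081 (plus strand), AHR at chr7:17298402-17298701 (plus strand) and CYP1A1 at chr15:74725479-74725778 (minus strand).
GCLM: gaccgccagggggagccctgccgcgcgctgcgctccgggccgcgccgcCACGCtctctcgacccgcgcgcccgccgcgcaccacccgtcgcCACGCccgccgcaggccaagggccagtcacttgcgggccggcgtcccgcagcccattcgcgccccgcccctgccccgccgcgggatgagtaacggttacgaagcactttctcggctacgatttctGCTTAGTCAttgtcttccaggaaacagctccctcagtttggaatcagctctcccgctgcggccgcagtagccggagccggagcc
TXNRD1: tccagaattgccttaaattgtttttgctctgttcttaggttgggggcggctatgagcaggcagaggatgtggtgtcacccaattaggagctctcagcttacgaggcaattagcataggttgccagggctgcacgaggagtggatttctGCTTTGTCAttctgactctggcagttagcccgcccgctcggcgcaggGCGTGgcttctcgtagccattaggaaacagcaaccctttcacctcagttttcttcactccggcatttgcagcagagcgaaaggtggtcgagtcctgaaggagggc
AHR: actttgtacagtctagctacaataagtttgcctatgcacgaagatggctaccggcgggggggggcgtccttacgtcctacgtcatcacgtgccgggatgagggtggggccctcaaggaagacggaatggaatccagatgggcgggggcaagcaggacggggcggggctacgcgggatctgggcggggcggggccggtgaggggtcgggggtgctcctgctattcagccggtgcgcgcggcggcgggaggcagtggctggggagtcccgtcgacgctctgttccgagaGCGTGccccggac
CYP1A1: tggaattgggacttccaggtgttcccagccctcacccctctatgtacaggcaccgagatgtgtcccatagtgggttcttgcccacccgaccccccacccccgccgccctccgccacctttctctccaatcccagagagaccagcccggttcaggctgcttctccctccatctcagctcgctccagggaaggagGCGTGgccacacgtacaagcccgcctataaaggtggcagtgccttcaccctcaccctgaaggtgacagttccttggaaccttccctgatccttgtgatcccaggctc
GCLM holds 1 antioxidant match and 2 xenobiotic matches, the TXNRD1 promoter shown holds 1 of each, and AHR and CYP1A1 hold 1 xenobiotic match each. Another TXNRD1 promoter, at chr12:104215529-104215828, holds 2 antioxidant matches and 0 xenobiotic matches. A match describes these letters and does not show that a factor binds there.

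The first question was how the genes moved with time in culture after serum withdrawal. In untreated cells, 26 of the 35 tested genes changed from 0 to 8 h, 18 upward and 8 downward. Of all tested genes, 25.9% changed (13.2% upward, 12.7% downward). From 0 to 48 h, 31 of the 35 changed, 13 upward and 18 downward, against 55.2% of all tested genes (28.1% upward, 27.1% downward). In the TGFβ arm, 24 changed from 0 to 8 h, 13 upward and 11 downward, against 33.9% of all genes (17.6% upward, 16.3% downward). From 0 to 48 h, 31 changed there, 11 upward and 20 downward, against 58.0% of all genes (29.9% upward, 28.1% downward). From 24 to 48 h, 22 changed in untreated cells, 9 upward and 13 downward, against 28.4% of all genes (14.8% upward, 13.7% downward). In the TGFβ arm 21 changed, 9 upward and 12 downward, against 25.8% of all genes (12.4% upward, 13.4% downward). Over 0 to 48 h, 11 genes rose in both arms, 17 fell in both arms and 1, MGST1, rose in untreated cells and fell with TGFβ. Of all tested genes, 20.8% rose in both arms, 21.1% fell in both and 2.67% moved in opposite directions. The median change over 0 to 48 h was -0.31 in untreated cells and -0.28 in the TGFβ arm, beside 0.01 and 0.02 for all tested genes. Most functional groups held genes of both directions over 0 to 48 h in untreated cells: of quinone and carbonyl reduction 5 rose and 3 fell, of the glutathione system 1 rose and 5 fell, and of haem and iron, and of epoxide and glucuronide metabolism, 1 rose and 1 fell. Each arm changes its table code between 8 and 24 h, so over 0 to 48 h time and code cannot be told apart.

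**Figure D1:**
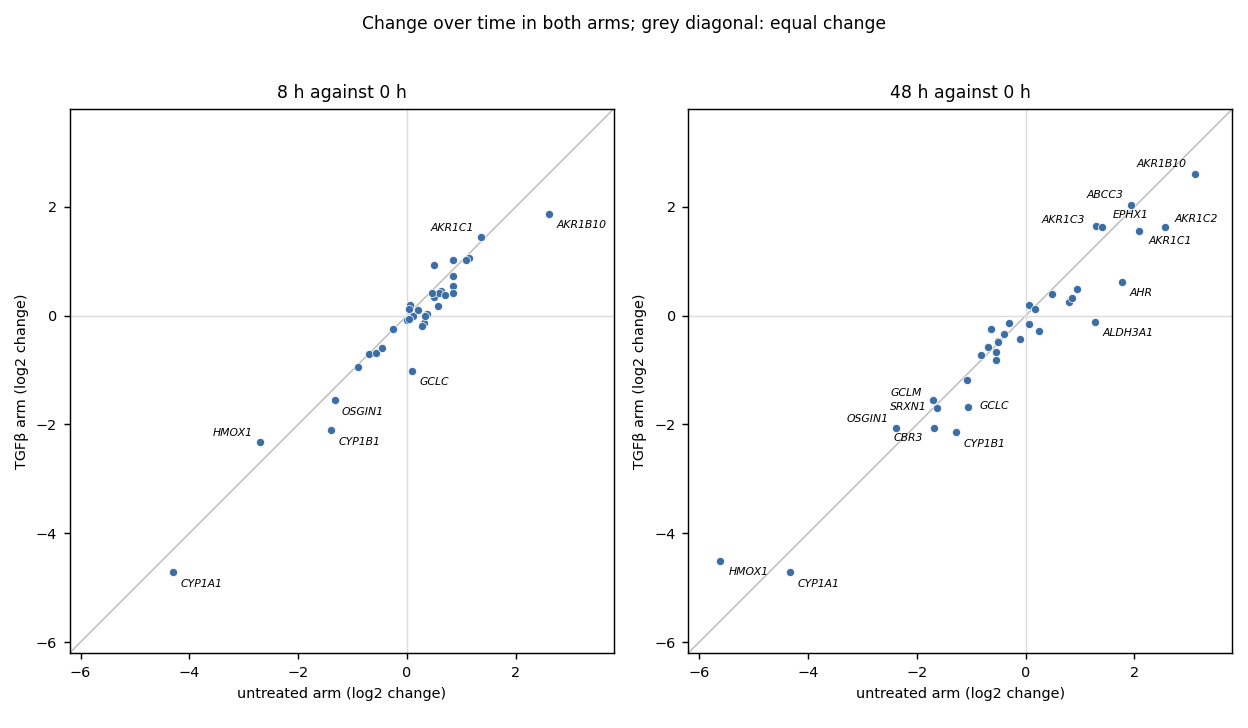
Log2 change from 0 to 8 h and from 0 to 48 h of the 35 tested genes in untreated cells (horizontal axis) and in the TGFβ arm (vertical axis), each point 1 gene and the grey diagonal equal change. Over 48 h HMOX1 lies at -5.62 and -4.51, CYP1A1 at -4.33 and -4.71 and AKR1B10 at 3.12 and 2.60, while AHR, ALDH3A1 and AKR1C2 lie below it.

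The second question was how TGFβ-treated cells differed from untreated cells at each time. At 0 h, before TGFβ could act, 0 of the 35 genes were called by limma voom, edgeR or DESeq2 and 2 had an unadjusted p below 0.05. Of all tested genes, 0.0% were called at 0 h by limma voom, 801 had an unadjusted p below 0.05, edgeR called 0 and DESeq2 called 8. At 8 h, 12 of 35 were called, 1 higher and 11 lower with TGFβ, against 16.4% of all tested genes (9.14% higher, 7.29% lower). At 24 h, 23 were called, 4 higher and 19 lower, against 29.4% of all genes (15.5% higher, 13.9% lower). At 48 h, 19 were called, 4 higher and 15 lower, against 32.7% of all genes (16.2% higher, 16.5% lower). The median difference of the 35 genes at 8, 24 and 48 h was -0.11, -0.27 and -0.06, beside -0.016, -0.015 and -0.013 for all tested genes. In the F-test over 8, 24 and 48 h, 27 of 35 were called, 6 higher and 21 lower on average. Of all genes, 42.6% were called (21.0% higher, 21.6% lower). At all 3 times, 10 genes were lower with TGFβ (AHR, AKR1B10, ALDH3A1, CYP1A1, CYP1B1, GCLC, GSR, MGST1, NQO1 and TXN), a pattern of 4.31% of all tested genes, and HMOX1 alone was higher, a pattern of 6.40% of all tested genes. No difference was called at any of the 3 times for CBR1, CBR3, GPX3, GSTP1, KEAP1, NFE2L2, NQO2, OSGIN1 and PRDX1. Scaling to 4 genes used as references for qRT-PCR in the study moved the median of all genes to 0.34 at 24 h and 0.34 at 48 h. Of the differences called, 19 of the 23 at 24 h and 16 of the 19 at 48 h then kept their sign. Relative to that median, all 23 and all 19 did. This was nearly fixed in advance, because the scaling shifts all genes by about the same amount.

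**Figure D2:**
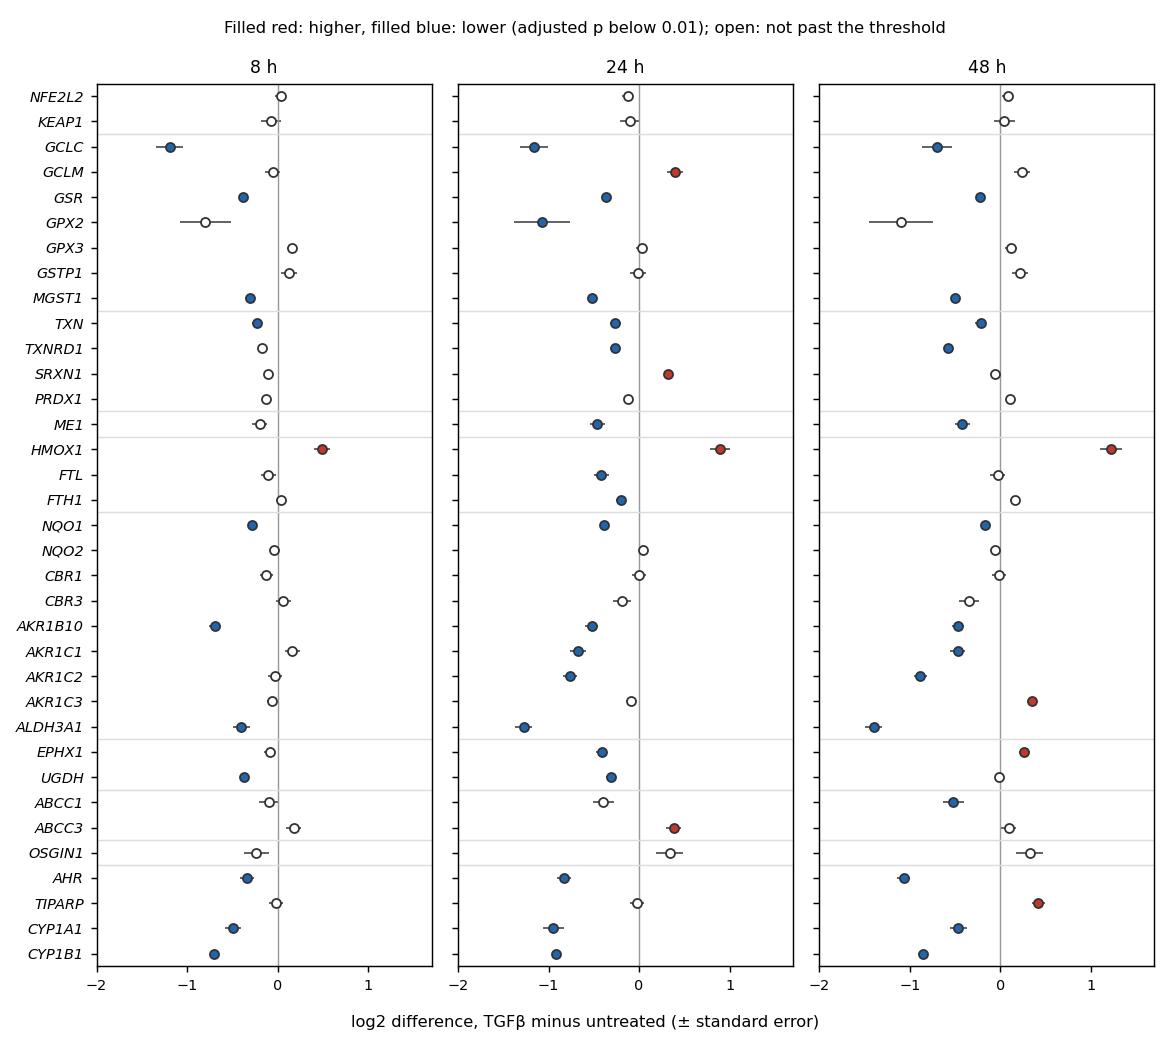
Log2 difference between the TGFβ arm and untreated cells for the 35 tested genes at 8, 24 and 48 h, with bars for the standard error and grey lines between functional groups. Filled points passed an adjusted p of 0.01, which was 12 genes at 8 h, 23 at 24 h and 19 at 48 h, and most filled points lie to the left of 0.

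NFE2L2 itself, which encodes NRF2 (chr2:177218667-177392756 in GRCh38), was not called between the arms at 8, 24 or 48 h. Its level in untreated cells was 169, 197 and 169 TPM at 0 h, 114, 115 and 119 at 8 h, 151, 168 and 154 at 24 h, and 142, 145 and 151 at 48 h. With TGFβ it was 160, 196 and 174 TPM at 0 h, 111, 110 and 115 at 8 h, 130, 152 and 138 at 24 h, and 153, 152 and 155 at 48 h. The arms overlapped at 0, 8 and 24 h, and at 48 h the TGFβ libraries were slightly above the untreated ones. The gene fell from 0 to 8 h in untreated cells by -0.71 ± 0.059 (adjusted p = 8.86e-09) and with TGFβ by -0.70 ± 0.059, and the difference between the arms was 0.03 ± 0.060 at 8 h (adjusted p = 0.753). At 24 h the difference was -0.13 ± 0.059 (adjusted p = 0.101); in the fit with a replicate block inside each time it was also -0.13 and was called (adjusted p = 0.000261). KEAP1, the adaptor that hands NRF2 to a ubiquitin ligase, lay between 63.5 and 105 TPM in all libraries. It fell from 0 to 48 h in untreated cells by -0.51 ± 0.112 and in the TGFβ arm by -0.47 ± 0.112. At 8 h its arms did not overlap, at 85.8, 85.0 and 86.4 TPM with TGFβ against 105, 94.4 and 100 TPM without. No difference was called at 8, 24 or 48 h, and that at 24 h was -0.10 ± 0.112 (adjusted p = 0.523). Both falls in the TGFβ arm from 0 to 48 h turned to rises, of 0.22 for NFE2L2 and 0.08 for KEAP1, when libraries were scaled to the 4 reference genes.

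In the glutathione group, GCLC and GCLM encode the subunits of glutamate-cysteine ligase, the enzyme that makes the first step of glutathione synthesis. The catalytic subunit gene GCLC (chr6:53497341-53616970) is measured here only in part: the transcript that release 44 marks as canonical for it has no entry in the tables, and its values are sums over its other transcripts. Of these, transcripts annotated as coding held a median of 7.9% of the TPM and 27.3% of the counts. The sums were at 191, 200 and 199 TPM at 0 h, 245, 227 and 249 at 8 h, 158, 173 and 149 at 24 h and 112, 96.7 and 106 at 48 h in untreated cells. TGFβ libraries were at 137, 231 and 214 TPM at 0 h, 98.9, 105 and 107 at 8 h, 52.1, 106 and 65.2 at 24 h and 67.9, 71.9 and 60.4 at 48 h. The arms did not overlap at 8, 24 or 48 h, and replicate 2 of the TGFβ arm at 24 h was well above replicates 1 and 3. GCLC transcripts were lower with TGFβ by -1.19 ± 0.146 at 8 h (adjusted p = 1.91e-06), -1.16 ± 0.155 at 24 h (adjusted p = 3.14e-06) and -0.70 ± 0.162 at 48 h (adjusted p = 0.00131). With coding transcripts alone the differences of GCLC were -1.25, -1.08 and -0.76 and were called. Without replicate 2 of the TGFβ arm at 24 h the difference at 24 h was -1.41, and with the 4 reference genes the call at 48 h was lost (-0.35, adjusted p = 0.102).

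GCLM (chr1:93885199-93909456), the modifier subunit of the same enzyme, has the promoter with an antioxidant match printed before, and was higher with TGFβ at 24 h. It was at 207, 241 and 234 TPM at 0 h, 154, 165 and 164 at 8 h, 72.8, 84.5 and 75.8 at 24 h and 67.8, 76.2 and 75.1 at 48 h in untreated cells. With TGFβ it was at 198, 263 and 238 TPM at 0 h, 154, 143 and 151 at 8 h, 94.1, 114 and 96.4 at 24 h and 82.8, 80.0 and 88.5 at 48 h. Its levels fell in both arms, and at 24 and 48 h every TGFβ library was above every untreated one. The difference was 0.40 ± 0.088 at 24 h (adjusted p = 0.00104), and 0.24 ± 0.089 at 48 h (adjusted p = 0.0379), which was not called. The call at 24 h was lost with library totals as the scale (0.30, adjusted p = 0.0125). Coding transcripts held a median of 48.9% of the TPM of GCLM and 89.8% of its counts, and with these alone the difference at 24 h was 0.38 (adjusted p = 0.00235). In both arms GCLM fell from 0 to 48 h, by -1.71 ± 0.086 without and -1.54 ± 0.085 with TGFβ.

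Among the other glutathione genes, GSR, which regenerates reduced glutathione, was lower with TGFβ at 8 h (-0.39 ± 0.028), 24 h (-0.37 ± 0.029; -0.01 and not called with the 4 reference genes) and 48 h (-0.22 ± 0.030; turned to 0.13). MGST1, a membrane-bound glutathione transferase, rose from 412, 461 and 427 TPM at 0 h to 559, 564 and 601 TPM at 8 h in untreated cells. In the TGFβ arm it was at 414, 468 and 411 TPM and at 437, 427 and 462 TPM. It was lower with TGFβ by -0.31 ± 0.053 at 8 h (adjusted p = 0.000142), -0.52 ± 0.054 at 24 h and -0.50 ± 0.054 at 48 h, and all 3 calls were lost with the 4 reference genes (-0.22, -0.17 and -0.15). GPX2, a gastrointestinal glutathione peroxidase and known NRF2 target, was near the detection limit at 0.143 to 1.05 TPM, and its call at 24 h (-1.07 ± 0.308, adjusted p = 0.00841) was lost in the paired fit with a replicate block inside each time (-1.03, adjusted p = 0.0129). At 0 h its difference between the arms was -1.23 ± 0.362 (adjusted p = 0.73). GPX3, a secreted peroxidase, and GSTP1, the main soluble glutathione transferase of many epithelia, were abundant and not called between the arms: GPX3 lay between 84.6 and 168 TPM and GSTP1 between 834 and 1139 TPM.

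Of the thioredoxin group, TXN, which reduces protein disulfides, was lower with TGFβ at 8 h (-0.23 ± 0.059, adjusted p = 0.00585), 24 h (-0.26 ± 0.060) and 48 h (-0.22 ± 0.061). It lay between 496 and 813 TPM in all libraries, and with the 4 reference genes its difference was 0.09 at 24 h and 0.13 at 48 h. Leaving out any 1 of the 6 libraries at 8 h lost its call there (for example -0.21, adjusted p = 0.0324, without replicate 3 of untreated cells at 8 h). Its call at 48 h was lost in 4 of 24 leave-one-out fits (highest adjusted p = 0.0296) and that at 24 h in 1 (adjusted p = 0.0101). TXNRD1, which recycles thioredoxin with NADPH, rose in untreated cells from 130, 136 and 127 TPM at 0 h to 209, 208 and 216 at 8 h, 163, 166 and 165 at 24 h and 248, 248 and 242 at 48 h. Its TGFβ libraries were at 111, 135 and 128 TPM at 0 h, 180, 174 and 183 at 8 h, 119, 140 and 122 at 24 h and 148, 157 and 149 at 48 h. From 8 h on the arms did not overlap. The difference between the arms was -0.17 ± 0.048 at 8 h (adjusted p = 0.0132), -0.27 ± 0.050 at 24 h (adjusted p = 0.000172; turned to 0.08 with the 4 reference genes) and -0.58 ± 0.049 at 48 h (adjusted p = 2.92e-09). SRXN1, which repairs overoxidised peroxiredoxins, fell from 248, 254 and 256 TPM at 0 h to 77.4, 77.7 and 78.8 at 24 h and 88.9, 84.8 and 87.8 at 48 h in untreated cells. With TGFβ it fell from 242, 258 and 250 TPM to 87.9, 102 and 95.2 at 24 h and 80.5, 79.7 and 87.6 at 48 h. The TGFβ libraries were thus above the untreated ones at 24 h (0.31 ± 0.043, adjusted p = 4.08e-06), and the arms overlapped at 48 h (-0.06 ± 0.043, adjusted p = 0.29). PRDX1, an abundant peroxidase at 962 to 1664 TPM, was not called between the arms, with -0.12 ± 0.041 at 24 h (adjusted p = 0.0186) and -0.12 in the fit with a replicate block inside each time, where it was called (adjusted p = 0.00637).

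ME1, the malic enzyme that supplies NADPH, rose in untreated cells from 66.6, 79.2 and 72.5 TPM at 0 h to 129, 135 and 140 at 8 h. With TGFβ it rose from 67.5, 89.8 and 73.2 TPM to 112, 112 and 115. ME1 was lower with TGFβ at 24 h (-0.46 ± 0.080, adjusted p = 8.5e-05) and 48 h (-0.42 ± 0.081, adjusted p = 0.000221) but not called at 8 h (-0.20 ± 0.080, adjusted p = 0.0763). Both calls were lost with the 4 reference genes (-0.11 and -0.07).

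HMOX1 (chr22:35380361-35394214), which encodes haem oxygenase 1, had the largest change from 0 to 48 h of the 35 genes in untreated cells, and in the TGFβ arm the largest after CYP1A1 (-4.71 ± 0.081). It was the single one higher with TGFβ at 8, 24 and 48 h. In untreated cells it was at 598, 568 and 718 TPM at 0 h, 98.5, 97.6 and 103 at 8 h, 23.9, 21.7 and 24.1 at 24 h, and 14.1, 12.8 and 13.4 at 48 h. The TGFβ libraries were at 654, 590 and 758 TPM at 0 h, 147, 136 and 123 at 8 h, 41.0, 40.6 and 43.9 at 24 h, and 32.0, 29.5 and 32.0 at 48 h. Every TGFβ library was above every untreated library at 8, 24 and 48 h, while the arms overlapped at 0 h. From 0 to 48 h HMOX1 fell by -5.62 ± 0.107 in untreated cells (adjusted p = 8.01e-20) and by -4.51 ± 0.098 with TGFβ (adjusted p = 3.22e-19). The difference between the arms was 0.49 ± 0.093 at 8 h (adjusted p = 0.000435), 0.89 ± 0.109 at 24 h (adjusted p = 9.75e-07) and 1.22 ± 0.119 at 48 h (adjusted p = 2.8e-08), with leave-one-out values of 0.43 to 0.56, 0.83 to 0.93 and 1.197 to 1.258. In both arms every library at 48 h was below every library at 0 h.

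FTL and FTH1, the light and heavy chains of the iron store ferritin, were the most abundant of the list, with means of 5946 and 5031 TPM in untreated cells at 0 h. Both rose from 0 to 8 h in both arms, FTL by 0.62 ± 0.085 without and 0.46 ± 0.085 with TGFβ, and FTH1 by 0.59 ± 0.056 and 0.42 ± 0.056. At 24 h both were lower with TGFβ, FTL by -0.42 ± 0.084 (adjusted p = 0.000406) and FTH1 by -0.20 ± 0.055 (adjusted p = 0.00566), and neither was called at 8 or 48 h. With the 4 reference genes FTH1 at 24 h turned to 0.15 and the FTL call was lost (-0.06). The FTH1 call was also lost without replicate 1 of untreated cells at 24 h (-0.18, adjusted p = 0.0303), and without replicate 3 of that group or replicate 2 or 3 of the TGFβ arm at 24 h. Reads of the ferritin chains, PRDX1, TXN and NQO1 can be shared with processed pseudogenes, so their split by the authors' quantification is uncertain.

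**Figure D3:**
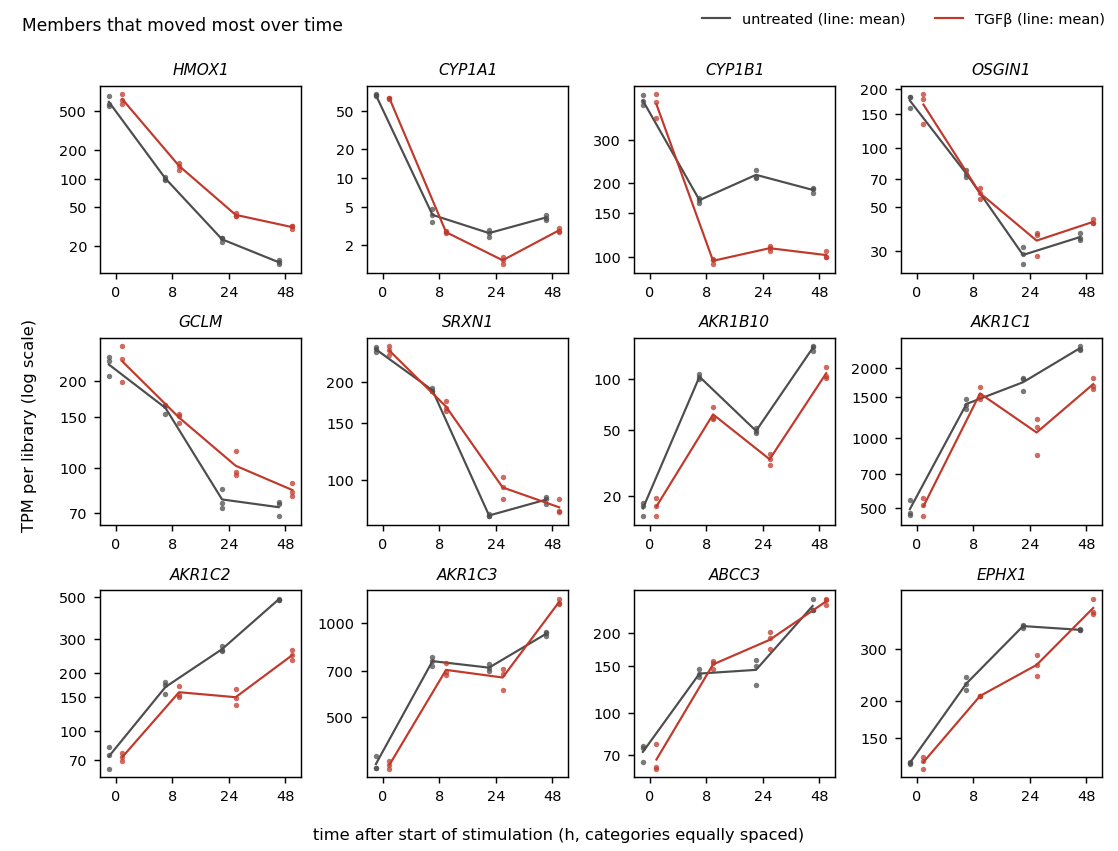
Level in TPM on a log axis of 12 genes that moved strongly over 0, 8, 24 and 48 h, with 1 point per library, lines through the means of 3 libraries, untreated cells in grey and the TGFβ arm in red. HMOX1, CYP1A1, CYP1B1, OSGIN1, GCLM and SRXN1 fall in both arms, and AKR1B10, AKR1C1, AKR1C2, AKR1C3, ABCC3 and EPHX1 rise in both.

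Among the reductases, the aldo-keto reductases, which reduce carbonyls and steroids with NADPH, rose most. AKR1B10 (chr7:134527567-134541412) went in untreated cells from 15.3, 18.2 and 17.4 TPM at 0 h to 100, 104 and 107 at 8 h, 47.6, 49.2 and 51.1 at 24 h, and 149, 158 and 156 at 48 h. Under TGFβ it went from 15.2, 19.5 and 17.6 TPM to 58.4, 59.1 and 68.1 at 8 h, 35.7, 33.5 and 30.8 at 24 h, and 119, 103 and 105 at 48 h. In both arms the level at 24 h was below that at 8 and at 48 h, and after 0 h every TGFβ library was below every untreated one. The gene rose from 0 to 48 h by 3.12 ± 0.077 without and 2.60 ± 0.078 with TGFβ, and was lower with TGFβ by -0.69 ± 0.068 at 8 h (adjusted p = 7.2e-08), -0.52 ± 0.074 at 24 h and -0.47 ± 0.066 at 48 h. The calls at 24 and 48 h were lost with the 4 reference genes (-0.17 and -0.12).

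AKR1C1, AKR1C2 and AKR1C3 are near-identical neighbours on chromosome 10, and their shared reads were divided by the authors' quantification. AKR1C2 in untreated cells was at 63.2, 74.3 and 82.4 TPM at 0 h, 156, 173 and 178 at 8 h, 260, 276 and 264 at 24 h and 482, 490 and 483 at 48 h. At the same times, the TGFβ arm was at 73.2, 76.2 and 69.2, 151, 154 and 172, 164, 136 and 148, and 264, 247 and 233 TPM. The arms overlapped at 0 and 8 h and were apart at 24 and 48 h, by -0.77 ± 0.075 (adjusted p = 4.09e-08) and -0.88 ± 0.073 (adjusted p = 1.9e-09). AKR1C1, the most abundant of the 3, was at 473, 464 and 542 TPM at 0 h and 2492, 2434 and 2398 TPM at 48 h in untreated cells. Its TGFβ libraries were at 552, 459 and 512 and 1822, 1686 and 1625 TPM. It was lower with TGFβ by -0.68 ± 0.085 at 24 h and -0.47 ± 0.083 at 48 h (-0.12, not called, with the 4 reference genes). Transcripts annotated as coding held a median of 80.9% of the TPM of AKR1C1 and 59.1% of its counts. AKR1C3, which also makes prostaglandins and androgens, was at 340, 340 and 373 TPM at 0 h and 926, 907 and 933 at 48 h in untreated cells. With TGFβ it was at 359, 339 and 350 and 1200, 1153 and 1162 TPM, and it was higher at 48 h by 0.35 ± 0.055 (adjusted p = 2.37e-05). With the counts of these 3 genes and AKR1C4 summed, the difference at 48 h was -0.26 (adjusted p = 0.00436), the opposite sign to that of AKR1C3 alone. Their summed level rose from 917.8 ± 68.8 TPM (SD, n = 3) at 0 h to 3848 ± 45.3 TPM at 48 h in untreated cells and from 929.7 ± 55.1 to 3131 ± 138 TPM in the TGFβ arm.

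ALDH3A1 (chr17:19737984-19748943), an aldehyde dehydrogenase that clears lipid aldehydes, rose in untreated cells and was not called over time in the TGFβ arm. Untreated libraries were at 213, 192 and 214 TPM at 0 h, 299.5, 307 and 314 at 8 h, 431, 374 and 432 at 24 h and 506, 498 and 492 at 48 h. TGFβ libraries were at 216, 177 and 214 TPM at 0 h, 219, 222 and 220 at 8 h, 184, 146 and 174 at 24 h and 194, 189 and 178 at 48 h. From 8 h on the arms were apart, and the gap widened at 24 h. ALDH3A1 rose from 0 to 48 h by 1.28 ± 0.093 in untreated cells (adjusted p = 1.21e-10), against -0.11 ± 0.097 in the TGFβ arm (adjusted p = 0.317). The difference between the arms was -0.40 ± 0.093 at 8 h (adjusted p = 0.00265), -1.28 ± 0.094 at 24 h (adjusted p = 4.41e-10) and -1.40 ± 0.094 at 48 h (adjusted p = 7.39e-11). The call at 8 h was lost without replicate 3 of untreated cells at 8 h (-0.38, adjusted p = 0.0139), replicate 1 of the TGFβ arm at 8 h (-0.39, adjusted p = 0.0128) or its replicate 3 (-0.40, adjusted p = 0.011).

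NQO1, the quinone reductase that is the best known NRF2 target, was the third most abundant of the list. It rose from 1809, 1812 and 1848 TPM at 0 h to 2964, 3031 and 3073 at 8 h in untreated cells. With TGFβ it rose from 1851, 1872 and 1845 to 2395, 2385 and 2481 TPM. It was lower with TGFβ by -0.29 ± 0.029 at 8 h (adjusted p = 1.23e-07), -0.39 ± 0.030 at 24 h (adjusted p = 6.15e-10; -0.04 and not called with the 4 reference genes) and -0.17 ± 0.030 at 48 h (adjusted p = 8.11e-05), where scaling to the 4 reference genes turned it to 0.18. NQO2, CBR1 and CBR3, further quinone and carbonyl reductases, were not called between the arms. In TPM, every NQO2 library with TGFβ was nevertheless below every untreated one at 8, 24 and 48 h. The NQO2 means were 51.7 against 60.3, 35.4 against 38.7 and 34.8 against 41.0 TPM. CBR3 fell in both arms, from 48.2, 44.5 and 46.8 TPM at 0 h to 15.7, 15.6 and 15.0 at 48 h without TGFβ. With TGFβ it fell from 52.6, 40.8 and 47.4 to 10.4, 12.4 and 13.1 TPM. These are falls of -1.68 ± 0.095 and -2.07 ± 0.102, and the difference at 48 h, where the libraries did not overlap, was -0.35 ± 0.112 (adjusted p = 0.0148 by limma voom), and edgeR called it (adjusted p = 0.00675). NQO2 and CBR1 fell from 0 to 48 h in both arms by -0.49 to -0.67; the fall of CBR1 in the TGFβ arm turned to 0.06 with the 4 reference genes.

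**Figure D4:**
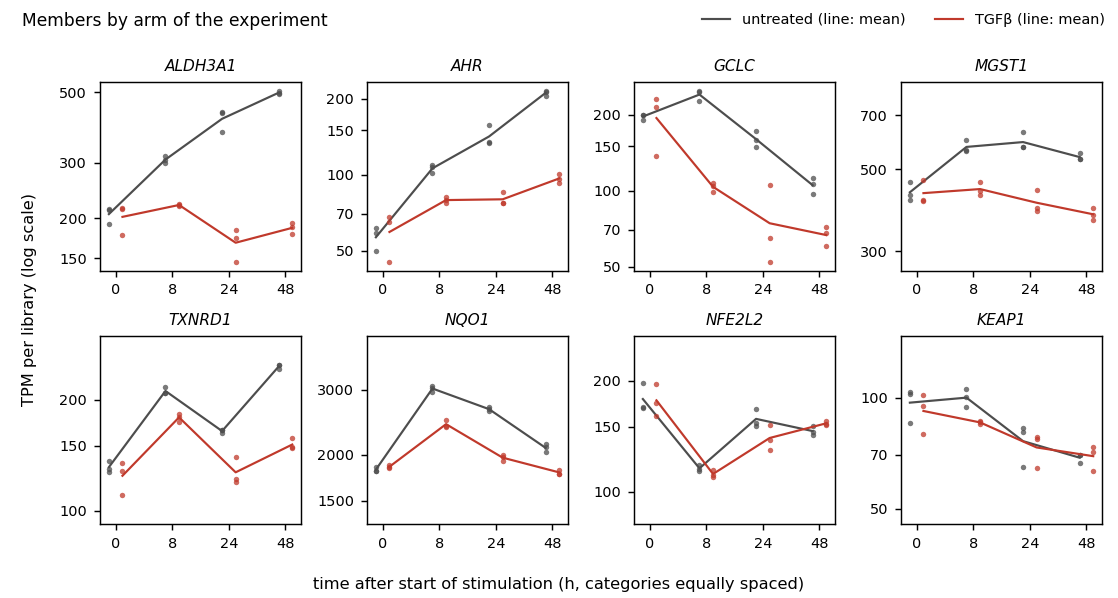
Level in TPM on a log axis of 8 genes at 0, 8, 24 and 48 h, with 1 point per library, lines through the means of 3 libraries, untreated cells in grey and the TGFβ arm in red. ALDH3A1 and AHR rise in untreated cells and stay lower with TGFβ. NFE2L2 and KEAP1 run close together, although the arms did not overlap for KEAP1 at 8 h and NFE2L2 at 48 h.

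EPHX1, the microsomal epoxide hydrolase, was the single gene called in both directions. It was at 124, 123 and 122 TPM at 0 h, 218, 228 and 242 at 8 h, 363, 354 and 360 at 24 h and 350, 348 and 348 at 48 h in untreated cells. At the same times TGFβ libraries were at 129, 118 and 125, 207, 209 and 208, 287, 242 and 266, and 445, 401 and 395 TPM. Untreated cells reached their plateau at 24 h, and the TGFβ arm passed it at 48 h. EPHX1 was lower with TGFβ at 24 h by -0.41 ± 0.061 (adjusted p = 1.32e-05; -0.06 and not called with the 4 reference genes) and higher at 48 h by 0.26 ± 0.061 (adjusted p = 0.00133). The call at 48 h was lost without replicate 1 of the TGFβ arm at 48 h (0.20, adjusted p = 0.015). UGDH, which makes the sugar for glucuronidation, was lower with TGFβ at 8 h (-0.37 ± 0.047, adjusted p = 2.98e-06) and 24 h (-0.31 ± 0.049; 0.04 with the 4 reference genes) and fell in both arms from 0 to 48 h, by -1.08 ± 0.049 and -1.17 ± 0.049.

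Of the efflux pumps, which export glutathione and glucuronide conjugates, ABCC3 rose in both arms. It was at 75.3, 65.8 and 74.2 TPM at 0 h and 269, 244 and 245 TPM at 48 h in untreated cells. The TGFβ libraries were at 62.9, 62.1 and 76.6 and 267, 267 and 254 TPM. The rises were 1.93 ± 0.085 and 2.03 ± 0.085. At 24 h it was higher with TGFβ, at 201, 174 and 191 TPM against 158, 128 and 150 TPM (0.38 ± 0.082, adjusted p = 0.00078). Transcripts annotated as coding held a median of 25.3% of its counts, and with these alone the difference at 24 h was 0.44 and not called (adjusted p = 0.027). ABCC1 was low, at 4.43 to 12.2 TPM, and lower with TGFβ at 48 h by -0.52 ± 0.114 (adjusted p = 0.000821; -0.17 with the 4 reference genes). At 24 h its difference was -0.39 ± 0.119 (adjusted p = 0.0116), and it was called in the paired fit with a replicate block inside each time (-0.41, adjusted p = 0.000116). ABCC2 did not pass the filter; like GCLC it lacks its canonical transcript in the tables, and its remaining transcripts held at most 1.18 TPM.

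OSGIN1, an oxidative stress-induced growth inhibitor, fell in untreated cells from 182, 160 and 184 TPM at 0 h to 73.7, 77.1 and 71.5 at 8 h, 28.8, 25.6 and 31.2 at 24 h and 36.8, 34.8 and 34.0 at 48 h. In the TGFβ arm it fell from 179, 133 and 189 TPM to 62.7, 59.2 and 55.1 at 8 h, 37.2, 28.2 and 36.03 at 24 h and 41.6, 43.5 and 41.4 at 48 h. The TGFβ libraries were below the untreated ones at 8 h and above them at 48 h. None of these differences was called: -0.24 ± 0.137 at 8 h (adjusted p = 0.246), 0.34 ± 0.153 at 24 h (adjusted p = 0.0886) and 0.32 ± 0.149 at 48 h (adjusted p = 0.09). At 24 h it was called in the fit with a replicate block inside each time (0.34, adjusted p = 0.000462).

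In the AHR group, the receptor rose over time and its CYP1 targets fell. AHR (chr7:16916359-17346152) was at 49.7, 61.3 and 58.6 TPM at 0 h, 102, 107 and 109 at 8 h, 133, 157 and 134 at 24 h and 212, 206 and 215 at 48 h in untreated cells. In the TGFβ arm it was at 45.1, 68.0 and 65.0 TPM at 0 h, 79.4, 77.2 and 81.5 at 8 h, 77.2, 85.5 and 77.1 at 24 h and 101, 93.0 and 96.3 at 48 h. The arms were apart from 8 h on, with the untreated level still rising at 24 and 48 h. Transcripts annotated as coding held a median of 51.7% of the TPM of AHR and 75.6% of its counts. AHR rose from 0 to 48 h by 1.78 ± 0.076 without (adjusted p = 1.97e-14) and by 0.62 ± 0.078 with TGFβ (adjusted p = 4.97e-07). It was lower with TGFβ by -0.34 ± 0.076 at 8 h (adjusted p = 0.00173), -0.83 ± 0.075 at 24 h (adjusted p = 1.23e-08) and -1.07 ± 0.074 at 48 h (adjusted p = 1.34e-10), and the call at 8 h was lost with the 4 reference genes (-0.25, adjusted p = 0.0842).

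CYP1A1 (chr15:74719542-74725536), the most inducible AHR target, fell within 8 h from 73.3, 75.1 and 71.4 TPM to 4.14, 4.81 and 3.53 TPM in untreated cells. With TGFβ it fell from 67.9, 68.8 and 66.5 to 2.80, 2.75 and 2.70 TPM. It stayed low, at 2.91, 2.70 and 2.45 TPM at 24 h and 3.87, 3.71 and 4.12 TPM at 48 h without and 1.51, 1.43 and 1.28 and 3.01, 2.79 and 2.85 TPM with TGFβ. The fall from 0 to 8 h was -4.30 ± 0.068 without and -4.72 ± 0.076 with TGFβ, and the arms did not overlap at any of the 4 times. The difference was -0.08 ± 0.050 at 0 h (adjusted p = 1.00), -0.50 ± 0.089 at 8 h (adjusted p = 0.000226), -0.95 ± 0.113 at 24 h (adjusted p = 7.3e-07) and -0.46 ± 0.094 at 48 h (adjusted p = 0.000395; -0.11 and not called with the 4 reference genes).

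CYP1B1 (chr2:38066973-38109902), which activates polycyclic hydrocarbons and oxidises oestrogens, stayed at a higher level. It was at 431, 455 and 414 TPM at 0 h, 165, 171 and 174 at 8 h, 212, 226 and 209 at 24 h and 190, 182 and 189 at 48 h in untreated cells. At those times TGFβ libraries were at 368, 461 and 426, 97.0, 93.0 and 98.1, 108, 111 and 106, and 99.7, 99.3 and 105 TPM. After 0 h the TGFβ level was close to that of 8 h throughout, and every TGFβ library lay far below every untreated one. The difference was -0.70 ± 0.049 at 8 h (adjusted p = 4.62e-10), -0.91 ± 0.049 at 24 h (adjusted p = 2.4e-12) and -0.86 ± 0.050 at 48 h (adjusted p = 6.9e-12), and in each leave-one-out fit it was called. TIPARP, a target of AHR that represses it, fell from 0 to 8 h by -0.90 ± 0.072 without and -0.94 ± 0.072 with TGFβ and was higher with TGFβ at 48 h, at 83.5, 81.8 and 82.8 TPM against 64.0, 64.1 and 62.9 TPM (0.42 ± 0.072, adjusted p = 7.04e-05).

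The change from 0 to 8 h was compared between the arms because it is free of an offset between the codes of the tables. In this test 10 of 35 genes were called, 0 higher and 10 lower with TGFβ, against 7.91% of all tested genes (5.06% higher, 2.84% lower). GCLC transcripts had the largest difference (-1.11 ± 0.205, adjusted p = 0.000553), followed by AKR1B10 (-0.74 ± 0.111, adjusted p = 5.73e-05) and CYP1B1 (-0.71 ± 0.067, adjusted p = 1.25e-07). UGDH (-0.46 ± 0.067), GSR (-0.43 ± 0.040), AHR (-0.43 ± 0.110), CYP1A1 (-0.42 ± 0.102), TXN (-0.34 ± 0.084), MGST1 (-0.33 ± 0.076) and NQO1 (-0.33 ± 0.042) completed the list. The 3 with the least margin, AHR (adjusted p = 0.00996), TXN (adjusted p = 0.00899) and CYP1A1 (adjusted p = 0.00804), were lost in many of the other fits, and without replicate 1 of untreated cells at 0 h the count was 6. HMOX1 (0.38 ± 0.125, adjusted p = 0.0551) and ALDH3A1 (-0.40 ± 0.135, adjusted p = 0.0581) were not called. In the fit with a replicate block inside each time, HMOX1 (0.38, adjusted p = 0.000718), ALDH3A1 (-0.40, adjusted p = 8.85e-05), ME1 (-0.30, adjusted p = 0.000582) and ABCC3 (0.18, adjusted p = 0.00398) were called as well, which gave 14 genes, 2 higher and 12 lower. That fit pairs same-numbered libraries also at 8 h, where their deviations from the group means correlated at -0.03 to 0.157. For the change from 24 to 48 h, the fit without that block called 9 of 35, 7 higher and 2 lower with TGFβ. Of all tested genes it called 9.14% (3.51% higher, 5.62% lower).

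Beside the 36 genes, 61 further genes of the same pathways were taken as a list, of which 60 passed the filter. Between the arms, 12 of 60 (20%) were called at 8 h (3 higher, 9 lower), 25 (41.7%) at 24 h (7 higher, 18 lower), 25 (41.7%) at 48 h (7 higher, 18 lower) and 36 (60%) in the F-test (11 higher, 25 lower). Of all tested genes these shares were 16.4%, 29.4%, 32.7% and 42.6%. Their shares higher and lower were 9.14% and 7.29% at 8 h, 15.5% and 13.9% at 24 h, 16.2% and 16.5% at 48 h. In the F-test they were 21.0% and 21.6%. The change from 0 to 8 h differed for 4 of the 60 (6.7%), 1 higher and 3 lower, against 7.91% of all tested genes (5.06% higher, 2.84% lower). For ABCC4, AHRR, GSS and TRIM16L the canonical transcript had no entry in the tables. The 4 lowest and the 4 highest on average were ALDH3A2, ABCB1, SOD2 and TXNIP, and CHAC1, MAFK, UGT1A6 and GPX8. SOD2, the mitochondrial superoxide dismutase, rose from a mean of 104 TPM at 0 h to 1537 TPM at 48 h in untreated cells and from 110 to 334 TPM in the TGFβ arm. The TGFβ arm was lower at 48 h by -2.05 ± 0.066 (adjusted p = 4.03e-16). ALDH3A2, the fatty aldehyde dehydrogenase next to ALDH3A1 on the chromosome, rose from 81.8 to 212 TPM without TGFβ and was at 76.9 and 72.1 TPM with it. It was lower with TGFβ by -0.79 ± 0.040 at 8 h, -1.17 ± 0.040 at 24 h and -1.48 ± 0.040 at 48 h. ABCB1, the multidrug pump P-glycoprotein, was low and fell with TGFβ to a mean of 1.25 TPM at 48 h against 3.28 TPM without it (-1.83 ± 0.117, adjusted p = 3.46e-11). TXNIP, an inhibitor of thioredoxin, was lower with TGFβ at 8 h (-0.87 ± 0.112), 24 h (-1.01 ± 0.091) and 48 h (-0.50 ± 0.086) while rising in both arms.

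Of the genes higher with TGFβ, MAFK, a small MAF protein that pairs with NRF2 and with its competitor BACH1, was higher at 8 h (0.82 ± 0.129, adjusted p = 4.97e-05), 24 h (0.74 ± 0.130) and 48 h (0.52 ± 0.127, adjusted p = 0.00193). GPX8, a peroxidase of the endoplasmic reticulum, was higher at 24 h (0.48 ± 0.071) and 48 h (0.60 ± 0.072), at a mean of 145 against 100.04 TPM at 48 h. UGT1A6, a glucuronosyltransferase, was low and higher at 48 h (1.72 ± 0.242, 4.06 against 1.52 TPM), and it shares exons with other genes of its cluster, so its reads are uncertain. CHAC1, which degrades glutathione, was higher at 48 h (2.33 ± 0.677, adjusted p = 0.00813) at 7.12 against 2.29 TPM.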

How the data were processed

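RNA of 24 SK-MES1 libraries was sequenced, and per the labels the authors quantified transcripts of Ensembl release 79 (GRCh38) with kallisto 0.43.0. The deposited tables hold estimated counts, TPM and the effective length of 173259 transcripts per library, without pooling of replicates. Estimated counts were summed per gene with GENCODE release 44, which gave a gene to 155518 transcripts (89.8%) and 94.82 to 95.18% of the counts, and rounded to whole numbers. Genes with at least 10 counts in at least 3 libraries (17415) were tested with limma voom (limma 3.58.1, edgeR 4.0.16, R 4.3.3), TMM factors and 1 mean for each of 8 groups, with Benjamini-Hochberg adjustment and a threshold of 0.01. edgeR, DESeq2 1.42.0, other scalings, filters, units and left-out libraries were alternatives, and the steps were tested on simulated data. Totals were 46613589 to 77964234, and p-values measure the spread between replicates. The labels name no separate cultures, and the paper calls the replicates of these data biological.

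The genes and lists were chosen with earlier results of these data known. Values per library were given for genes with a difference between the arms of at least 1 or a change over time of at least 1.5 (log2), for NFE2L2 and AHR, and for a few others to which a result refers; of the further pathway genes, the 4 lowest and 4 highest on average were named. Replicate numbers were checked by the correlation, over 10527 genes, of the deviations of same-numbered libraries from their group means. It was 0.317 to 0.802 at 0 h and 0.564 to 0.806 at 24 h, but -0.03 to 0.157 at 8 h and -0.041 to 0.256 at 48 h, so numbers were taken to pair the arms at 0 and 24 h alone. Transcripts without a gene in release 44 (17741) were not used here.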

Additional observations from a re-analysis of the deposited data

Results flagged for a closer look

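The change from 24 to 48 h was compared between the arms, within the codes of the tables. It differed for 9 of the 35 genes (7 higher, 2 lower with TGFβ), against 9.14% of all tested genes (3.51% higher, 5.62% lower). With TGFβ the change was more positive for EPHX1 by 0.67, TIPARP by 0.44, AKR1C3 by 0.44, FTH1 by 0.36, UGDH by 0.30, PRDX1 by 0.23 and NQO1 by 0.22 on the log2 scale. It was more negative for SRXN1 (-0.37) and TXNRD1 (-0.31). For EPHX1 the difference between the arms went from -0.41 at 24 h to 0.26 at 48 h, and for SRXN1 from 0.31 to -0.06. With the AKR1C genes summed, the value of AKR1C3 was 0.23 and not called (adjusted p = 0.129). Without replicate 1 of untreated cells at 24 h the count was 5. The cause of these differences was not tested.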

How the results depend on the processing

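Of the counts of called genes, 199 of 208 recomputed under other settings stayed within 1.5 times the value given. The exceptions were 22 at 8 h and 13 for 24 to 48 h in the TGFβ arm when libraries of the compared groups alone were fitted. For the difference in change from 0 to 8 h the counts were 6 with those libraries alone, 6 on log2(TPM + 0.1) and 5 with the 4 reference genes. For 24 to 48 h they were 5 on log2(TPM + 1), 5 on log2(TPM + 0.1) and 5 with the 4 reference genes. In the fit with a replicate block inside each time, the count for 24 to 48 h was 14, although numbers were not taken to pair the arms at 48 h.

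Leaving out 1 library at a time gave 0 calls at 0 h, 10 to 14 at 8 h, 21 to 24 at 24 h, 17 to 21 at 48 h and 25 to 29 in the F-test. Over time it gave 25 to 27 (0 to 8 h), 19 to 23 (24 to 48 h) and 30 to 32 (0 to 48 h) in untreated cells, and 22 to 25, 17 to 22 and 29 to 31 with TGFβ. The difference in change gave 6 to 10 for 0 to 8 h (6 without replicate 1 or 3 of untreated cells at 0 h, or replicate 1 or 2 of the TGFβ arm at 8 h) and 5 to 10 for 24 to 48 h.

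Scaling to the 4 reference genes turned these values, beside the changes from 24 to 48 h within the arms counted before. At 24 h they became 0.34 for GSTP1, 0.086 for TXN, 0.082 for TXNRD1, 0.23 for PRDX1, 0.15 for FTH1, 0.26 for AKR1C3, 0.037 for UGDH and 0.33 for TIPARP. At 48 h they became 0.13 for GSR, 0.13 for TXN, 0.29 for SRXN1, 0.32 for FTL, 0.18 for NQO1, 0.29 for NQO2, 0.33 for CBR1 and 0.34 for UGDH. From 0 to 48 h with TGFβ they became 0.22 for NFE2L2, 0.079 for KEAP1, 0.41 for GSTP1, 0.28 for MGST1, 0.12 for TXN, 0.40 for NQO1, 0.060 for CBR1, 0.44 for ALDH3A1 and 0.31 for TIPARP. With this scaling the median of all genes moved to 0.34 at 24 h and 0.57 over 0 to 48 h with TGFβ. With the AKR1C genes summed, AKR1C3 at 48 h became -0.26. The cause was not tested. At 24 h the replicate block inside each time moved the calls of NFE2L2, GPX2, PRDX1, ABCC1 and OSGIN1, as given beside them, and no other call of a member at 24 h. With protein-coding transcripts alone, a setting chosen after seeing the data, the counts were 12, 22 and 19 at 8, 24 and 48 h. GPX2 held too few counts for firm statements, and GCLC and ABCC2 lack their canonical transcript.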
